A study of Homo sapiens with 7 samples.

Results

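The genes described here are those of the cell cycle and apoptosis families that lie nearest to a region of changed chromatin accessibility after PHF19 knockdown in Kasumi-1 cells. They were chosen by name alone: cyclins A, B, D, E, G, H, K and T with a number, numbered cyclin-dependent kinases (CDK), the CDKN inhibitors, CDC, E2F and MCM genes, the CHEK kinases, the BCL2 family with MCL1 and PMAIP1, the BIRC inhibitors of apoptosis and the caspases. CDC42 and its effectors were left out, which removed 3 regions at 2 genes. The rule gave 89 of the 8815 listed regions, assigned to 55 of 5939 gene symbols.

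Kasumi-1, a cell line from acute myeloid leukaemia, carries the RUNX1-RUNX1T1 fusion. ATAC-seq, which tags open chromatin with a transposase, compared 3 libraries labelled PHF19 knockdown, made with a lentiviral shRNA, and 4 libraries labelled WT, which received a scrambled control shRNA. All cells were selected in puromycin (2 µg/ml, from 48 hours after the shRNA, for at least 24 hours) and each library used 10000 cells. PHF19 is an accessory subunit of Polycomb repressive complex 2 (PRC2), which trimethylates histone H3 at lysine 27. The labels do not say that replicate libraries are separate cultures, so the authors' p-values reflect library spread that may be purely technical.

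The deposited tables list changed regions with the authors' mean normalised read count in each group, a log2 fold (knockdown over control) and a false discovery rate (FDR). Every region value below is from the authors' deposited tables, carries no SD or n, and has no value per library. Depth per library is unknown here. In all 8815 regions the deposited fold was smaller in size than the log2 difference of both means, so means and fold are given together. In a bulk assay, more cells with an open region and more openings per cell cannot be told apart. The lists hold only changed regions and no transcript level, so neither the knockdown nor the cell type could be checked from them.

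The cell division cycle is driven by cyclins bound to CDKs, by CDC25 phosphatases that remove inhibitory phosphates from CDKs, by E2F factors that switch on S-phase genes, and by the MCM helicase loaded at replication origins. CDK inhibitors of the INK4 and CIP/KIP families, repressor E2Fs and checkpoint kinases hold it back. Mitochondrial apoptosis is decided by the BCL2 family: BCL2 and MCL1 guard the outer membrane, the BH3-only proteins BIM (BCL2L11) and NOXA (PMAIP1) disable the guards, and caspases, which IAP proteins restrain, carry out the killing. The INK4 locus is a textbook Polycomb target, and CDK6 and BCL2 family guards are known dependencies of myeloid leukaemia cells.

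Promoters of 6 members are shown first, because their listed regions overlap the transcription start site (TSS). Among such members they had the largest promoter folds of their class. Only genes whose start-to-end length differed by at most 200 bp between the authors' annotation and RefSeq were considered. Drivers are represented by CDC25C and CDC20B, inhibitors by E2F7, and death regulators by CASP2, BIRC2 and PMAIP1. Each sequence is the 250 bases before the RefSeq start, 5′ to 3′ on the gene's strand, from the GRCh38.p14 table. Capitals mark matches, on either strand, to these motifs: E2F is TTTCCCGC or TTTGGCGC. CHR is TTTGAA or the variant TTCGAA. The CCAAT box was searched as written. CRE is TGACGTCA. AP-1 is TGANTCA. The GC box is GGGCGG. ETS is CCGGAAG. NRF1 was searched by its palindromic consensus. Matches may overlap. The promoter coordinates are GRCh38.p14 and must not be set against the region coordinates given elsewhere, which are as deposited and read as hg19.
CDC25C, chr5:138338356-138338605, minus strand: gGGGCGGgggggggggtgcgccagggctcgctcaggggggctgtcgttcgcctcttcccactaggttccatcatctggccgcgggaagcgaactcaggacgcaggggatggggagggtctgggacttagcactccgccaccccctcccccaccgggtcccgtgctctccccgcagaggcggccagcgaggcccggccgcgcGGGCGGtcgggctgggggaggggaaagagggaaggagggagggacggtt
CDC20B, chr5:55173178-55173427, minus strand: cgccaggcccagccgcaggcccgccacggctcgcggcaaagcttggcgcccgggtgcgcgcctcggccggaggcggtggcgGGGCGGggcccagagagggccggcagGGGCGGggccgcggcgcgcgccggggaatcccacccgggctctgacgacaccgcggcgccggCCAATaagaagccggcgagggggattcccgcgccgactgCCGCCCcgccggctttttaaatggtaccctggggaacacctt
E2F7, chr12:77065570-77065819, minus strand: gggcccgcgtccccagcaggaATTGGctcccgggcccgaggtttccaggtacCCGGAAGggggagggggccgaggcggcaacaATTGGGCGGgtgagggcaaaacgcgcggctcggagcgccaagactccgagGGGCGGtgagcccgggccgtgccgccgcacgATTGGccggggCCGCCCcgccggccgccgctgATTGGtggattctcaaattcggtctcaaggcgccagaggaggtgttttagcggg
CASP2, chr7:143288101-143288350, plus strand: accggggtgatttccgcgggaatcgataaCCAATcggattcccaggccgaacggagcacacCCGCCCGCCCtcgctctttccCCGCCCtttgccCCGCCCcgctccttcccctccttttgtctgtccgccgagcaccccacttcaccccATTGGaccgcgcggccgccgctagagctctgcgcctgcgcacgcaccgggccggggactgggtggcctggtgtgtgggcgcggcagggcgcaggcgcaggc
BIRC2, chr11:102346964-102347213, plus strand: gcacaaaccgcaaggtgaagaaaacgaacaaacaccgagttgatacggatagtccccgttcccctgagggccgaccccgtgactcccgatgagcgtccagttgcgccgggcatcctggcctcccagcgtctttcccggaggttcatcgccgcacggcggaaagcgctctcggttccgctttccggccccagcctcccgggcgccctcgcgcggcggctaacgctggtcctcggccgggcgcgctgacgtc
PMAIP1, chr18:59899746-59899995, plus strand: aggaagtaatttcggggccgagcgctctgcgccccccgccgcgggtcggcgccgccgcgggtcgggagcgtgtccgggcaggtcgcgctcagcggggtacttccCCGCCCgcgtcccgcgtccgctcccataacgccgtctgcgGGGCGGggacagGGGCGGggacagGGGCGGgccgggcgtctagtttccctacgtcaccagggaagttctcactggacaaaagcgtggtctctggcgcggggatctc

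All 6 promoters are rich in G and C, from 67.6% at BIRC2 to 77.2% at CDC20B, against a median of 62.4% over 15843 promoters of protein-coding genes. GC boxes, the sites read by SP1-type factors, are the commonest match: 4 each at CASP2 and PMAIP1, 3 each at E2F7 and CDC20B, and 2 at CDC25C. E2F7 also holds 4 CCAAT boxes, of which the match 167 bases before the start overlaps the GC box at 164, and 1 ETS match. None of the motifs searched has its letters in the BIRC2 window.

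Nearly all member regions gained accessibility. Of the 89, 88 were increased and 1 was decreased, while 8615 of all 8815 listed regions were increased. Among the 52675 regions the authors tested, which follows from their FDR and p-values, 16.4% were listed as increased and 0.380% as decreased. How many regions near these genes were tested but not listed is unknown here. The 88 increased regions had a median log2 fold of 0.99 (range 0.64 to 1.74), close to the 0.97 of all increased regions. Their median read counts were 30.4 in the knockdown and 13.1 in the control, against 27.5 and 11.2 over all increased regions.

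By the same name rule, RefSeq holds 125 protein-coding genes of these families, and 48 (38.4%) had at least 1 increased region, against 25.2% of all 20056 protein-coding genes. At promoters, within 3 kb of a TSS, 42 family genes (33.6%) had an increased region, against 17.5% of all protein-coding genes. A single family gene had a decreased region (0.800%, against 0.818%). The comparison counts genes with no accessible region in the background, and no test was made of it. The other 6 of the 55 genes are 4 long noncoding RNAs and the pseudogenes CASP12 and CASP4LP.

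Among the classes, inhibitors led with an increased region at 10 of 19 genes (52.6%), followed by death regulators with 12 of 29 (41.4%) and drivers with 12 of 43 (27.9%). The drivers' share is near the 25.2% of all genes. At promoters the shares were 42.1% of inhibitors, 34.5% of death regulators and 27.9% of drivers, against 17.5%. The order turned when only regions with an FDR of at most 0.01 were counted: 18.6% of drivers, 21.1% of inhibitors and 24.1% of death regulators then had an increased region, against 13.9% of all genes. Median log2 folds were 0.96 for 21 increased driver regions, 0.97 for 17 inhibitor regions and 1.03 for 23 death regions. Of these regions 42.9%, 23.5% and 65.2% had an FDR of 0.01 or less, against 45.9% of all increased regions. The 23 death regions include 4 assigned to the pseudogene CASP12, which is not among the 29 genes. These 4 had log2 folds of 1.13 to 1.23, above the death median, and all had an FDR of 0.01 or less.

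**Figure D1:**
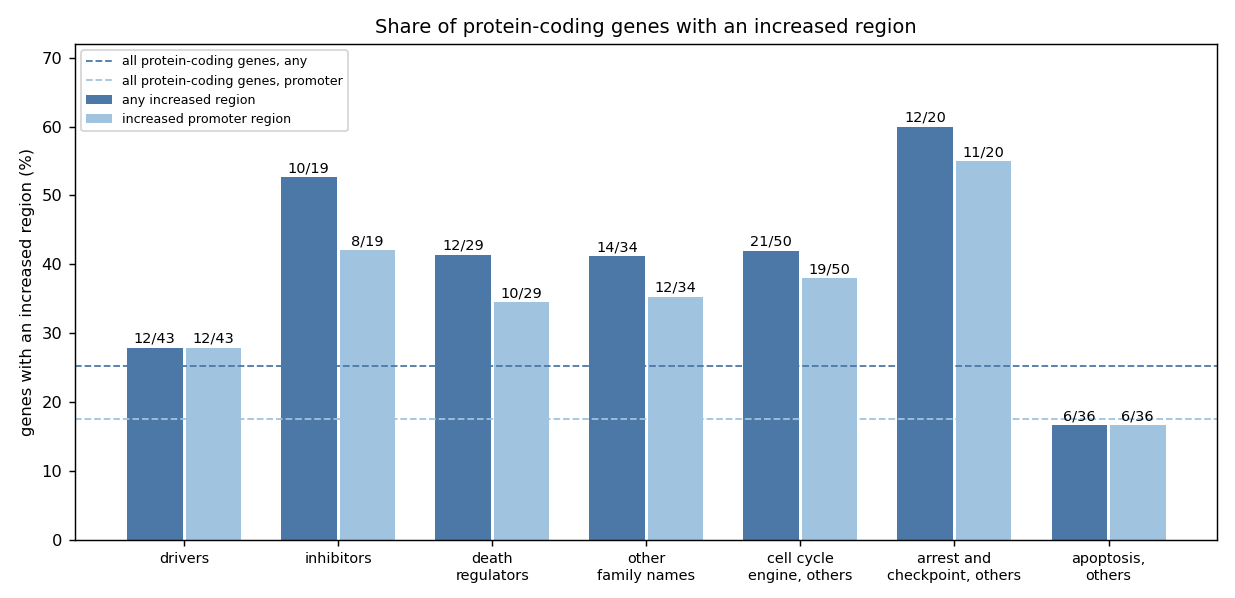
Percent of protein-coding genes with at least 1 increased region (dark bars) or an increased promoter region (light bars) in each group, with counts above the bars and dashed lines for all protein-coding genes (25.2% and 17.5%). Inhibitors (10 of 19) stand above drivers (12 of 43). The apoptosis genes outside the name rule (6 of 36) lie below the dashed line for any region and near the one for promoters.

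Among cyclins and cell-cycle CDKs, the listed genes were the E-type cyclins and CDK6, 3 of 16 (18.8%). That share is below the 25.2% of all protein-coding genes. All 3 had a promoter region, a share near the 17.5% of all protein-coding genes. Cyclins A, B and D and CDK1, CDK2, CDK3, CDK4 and CDK7 were not listed, but an absent entry is no evidence of unchanged chromatin. CDK6, the kinase that pairs with D-type cyclins in early G1, had 7 increased regions within 150 kb on chromosome 7, the most of any member. Its promoter region (chromosome 7, 92463113 to 92463513) held 45.0 knockdown reads and 20.2 control reads, a log2 fold of 0.98 (FDR 0.00233). A further promoter region 0.58 kb downstream held 30.7 and 14.7 reads (0.82). The region at the CDK6 TSS thus had the highest read counts of the 7, while the largest folds were intronic.

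The 4 intronic CDK6 regions lay 23.8 to 78.4 kb into the gene. The farthest held 30.8 and 11.4 reads (1.13, FDR 0.00176), and the one at 54.6 kb held 9.41 and 2.12 reads (1.11, FDR 0.0192). The intergenic region 67.7 kb upstream had the smallest fold, 0.79, with an FDR of 0.0405. Cyclin E2, an activator of CDK2 at the G1/S boundary, had an increased promoter region with 33.2 and 17.4 reads (0.77, FDR 0.0305). A second region assigned to CCNE2 (0.86, FDR 0.0349) lay in an intron of INTS8. Cyclin E1 had a region 13 bp upstream of its TSS (chromosome 19, 30302488 to 30302888) with 50.9 and 28.7 reads (0.70, FDR 0.0432).

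Regions were assigned to CDC25C and CDC25A, in opposite directions and at different kinds of site. The promoter of CDC25C, which activates CDK1 at entry into mitosis, had the largest fold of the drivers, 1.29, from 21.8 control reads to 62.8 knockdown reads (chromosome 5, 137673747 to 137674147, FDR 4e-05). CDC25A, the G1/S phosphatase, was the nearest gene to the only decreased member region, an intergenic region 36.4 kb downstream of its TSS (chromosome 3, 48192958 to 48193358). That region went from 11.8 control reads to 3.31 knockdown reads, a log2 fold of −1.02 (FDR 0.0286). It rests on few reads and is not at the CDC25A promoter, which had no listed region. CDC25B was not listed.

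E2F3, an activator E2F, had an increased promoter region 0.519 kb upstream with 30.2 and 12.7 reads (0.99, FDR 0.00908) and an intronic one 14.1 kb downstream with 15.3 and 5.87 reads (0.96, FDR 0.0254). E2F1 and E2F2, the other activators, had none.

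Origin licensing and firing genes had increased regions at 5 of 12 (41.7%), all at the promoter. Of all protein-coding genes 25.2% had an increased region and 17.5% an increased promoter region. MCM7, a helicase subunit, held 41.4 and 16.1 reads at its promoter (chromosome 7, 99698171 to 99698571), a log2 fold of 1.10 (FDR 0.00141). MCM4 followed with 28.2 and 10.8 reads (1.08, FDR 0.00355). MCM6 (0.91) and MCM9, a paralogue with a role in DNA repair (0.80), had smaller folds. CDC7, the kinase that fires licensed origins, had a promoter region with 37.1 and 18.3 reads (0.80, FDR 0.0204). A region assigned to CDC7 from 170 kb away had a larger fold (1.21, FDR 0.00900) but lies in an intron of TGFBR3 and held 3.10 reads in the control.

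Of 9 ubiquitin ligase and mitotic exit genes, CDC20B and CDC14A were listed (22.2%, near the 25.2% of all protein-coding genes). The promoter of CDC20B, a CDC20 paralogue, held 38.3 and 17.1 reads (0.96, FDR 0.00353). The region 0.915 kb upstream of the phosphatase gene CDC14A held 40.8 and 23.8 reads (0.66, FDR 0.0424). CDC20 itself and the anaphase-promoting complex genes CDC16, CDC23, CDC26 and CDC27 were not listed. Outside the name rule, the complex genes ANAPC10 (1.22, FDR 0.000495), ANAPC13 (1.14) and ANAPC2 (0.77) had increased promoter regions. No other gene named ANAPC was listed.

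Among inhibitors, 4 of 10 CDK inhibitor genes had increased regions (40.0%, against 25.2% of all protein-coding genes). At the promoter it was 2 of them (20.0% of the 10), near the 17.5% of all protein-coding genes. CDKN2C, encoding p18 INK4C, had a region 0.405 kb downstream of its TSS that went from 15.8 control reads to 38.4 knockdown reads (chromosome 1, 51434013 to 51434413, log2 fold 1.05, FDR 0.00208). CDKN3, which encodes a phosphatase that acts on CDKs, had an intergenic region 42.5 kb upstream with 13.98 and 4.78 reads (0.97, FDR 0.0308). CDKN1A, CDKN1B, CDKN1C and CDKN2D had no listed region.

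The INK4 locus on chromosome 9 held 6 increased regions within 149 kb (21902063 to 22051321), and no other listed region lay between them. The largest read counts were at the CDKN2A promoter (21974889 to 21975289), with 54.9 and 24.0 reads (1.03, FDR 0.000781). A neighbouring promoter region 0.212 kb upstream of the same TSS held 12.4 and 4.16 reads (0.92, FDR 0.0456). The antisense gene CDKN2B-AS1, also called ANRIL, had promoter regions with 31.9 and 18.0 reads (0.69, FDR 0.0499) and with 29.2 and 10.97 reads (1.11, FDR 0.00234).

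The region assigned to CDKN2B, encoding p15 INK4B, lies 41.6 kb upstream in an intron of CDKN2B-AS1 (12.3 and 3.86 reads, 0.99, FDR 0.0291). The region assigned to CDKN2A-DT lies in an intron of MTAP (16.3 and 5.11 reads, 1.11, FDR 0.0116). All 6 regions at the locus were thus higher in the knockdown, with a median log2 fold of 1.01, and 2 of them had an FDR of at most 0.01. ATAC-seq reads carry no strand, so the regions at the CDKN2B-AS1 start (21994185 to 21994919 and 21995002 to 21995571) cannot be given to a transcript of either strand. Both regions assigned to CDKN2A lie at its start annotated at 21975132 and end by 21975744, before the CDKN2B-AS1 start at 21994790. Each region carries only 1 assigned start. Whether the regions labelled CDKN2B-AS1 also cover another start of CDKN2A was not examined.

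Repressor E2Fs were listed at 3 of 5 genes (60.0%), each at the promoter, a small group beside the 17.5% of all protein-coding genes. E2F7, an atypical E2F that represses E2F targets, held 91.2 and 35.0 reads at its promoter (chromosome 12, 77459263 to 77459663), a log2 fold of 1.24 with an FDR of 3.83e-06. An intronic E2F7 region at 4.74 kb held 22.1 and 8.93 reads (0.96, FDR 0.0154), and an intergenic one 259 kb upstream held 34.3 and 17.3 (0.79, FDR 0.0249). E2F8, its closest relative, had a promoter region with the highest control mean of any member, 48.1 reads, against 79.8 in the knockdown (0.65, FDR 0.0149). A distal E2F8 region held 13.6 and 4.599 reads (1.001, FDR 0.0264). E2F6, a Polycomb-associated repressor, held 32.2 and 18.0 reads (0.70, FDR 0.0478). E2F4 and E2F5 were not listed.

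The growth-arrest cyclins and CHEK1 had increased promoter regions with small folds. Cyclin G1 held 63.2 and 36.6 reads at its promoter (0.70, FDR 0.0242), and cyclin G2 held 56.1 and 30.3 (0.76, FDR 0.0136). CHEK1, the kinase that stalls the cycle when replication is disturbed, held 48.4 and 28.3 reads 0.256 kb upstream of its TSS (0.64, FDR 0.0492), the smallest increase of any member. CCNG1 also had 3 intergenic regions 76.5 to 358 kb upstream. The nearest of these had the largest fold of the inhibitors, 1.45, from 1.38 reads in the control to 11.3 in the knockdown (FDR 0.00274). The others held 10.2 and 3.16 reads (0.97) and 11.8 and 2.47 reads (1.21).

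**Figure D2:**
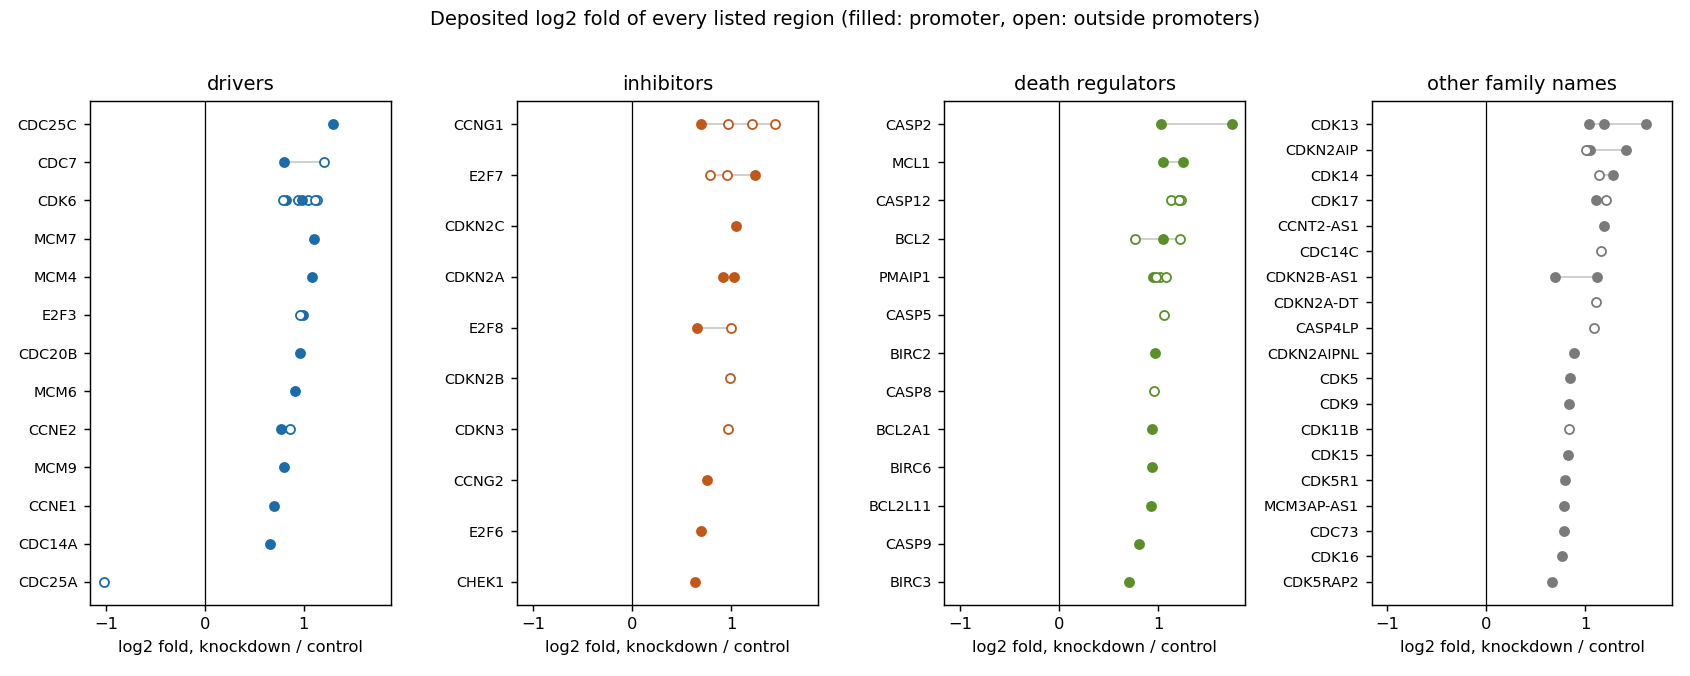
Deposited log2 fold (x axis) of all 89 member regions by gene (rows) and class (panels); filled points are promoter regions, open points lie outside promoters and grey lines join regions of a gene. All but CDC25A (−1.02) lie to the right of 0, between 0.64 at CHEK1 and 1.74 at CASP2.

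In the death class, increased regions were assigned to guards and to the BH3-only genes that the name rule takes in. Of 6 guard genes, BCL2, MCL1 and BCL2A1 were listed (50.0%, against 25.2% of all protein-coding genes). MCL1, a short-lived guard, had promoter regions at the TSS, with 48.4 and 20.1 reads (chromosome 1, 150551969 to 150552369, log2 fold 1.05, FDR 0.001002), and 0.251 kb downstream, with 20.1 and 6.09 reads (1.25, FDR 0.00297). BCL2 had a promoter region with 43.2 and 18.5 reads (1.04, FDR 0.00146). Its intronic regions held 15.0 and 4.09 reads at 82.6 kb (1.22, FDR 0.00607) and 40.8 and 21.6 reads at 181 kb (0.77, FDR 0.0187). The BCL2A1 promoter held 13.8 and 5.32 reads (0.94, FDR 0.0335). BCL2L1, BCL2L2 and BCL2L10 were not listed.

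Of 6 BH3-only and other BCL2 family genes under the name rule, the BH3-only PMAIP1 and BCL2L11 were listed (33.3%, against 25.2% of all protein-coding genes). The BH3-only genes BID, BAD, BIK, BMF, HRK and BBC3, which lie outside the rule, were not listed. PMAIP1 had 4 increased regions within 32.2 kb, with folds in a narrow range from 0.95 to 1.07. Its promoter held 72.7 and 34.4 reads (chromosome 18, 57567031 to 57567431, 0.95, FDR 0.00135), and the region 4.82 kb downstream held 34.8 and 13.8 (1.07, FDR 0.00239). The outer PMAIP1 regions, 13.9 kb upstream and 17.5 kb downstream, rested on 2.55 and 2.17 reads in the control. The BCL2L11 promoter held 44.6 and 20.6 reads (0.93, FDR 0.00538). BCL2L12, BCL2L13, BCL2L14 and BCL2L15 were not listed.

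IAP genes had an increased promoter at 3 of 5 (60.0%), a small group beside the 17.5% of all protein-coding genes. BIRC6, a giant ubiquitin ligase that blocks caspases, held 80.6 and 38.0 reads (0.93, FDR 0.00113). BIRC2, encoding cIAP1, held 75.7 and 35.9 reads (0.97, FDR 0.000275), and its neighbour BIRC3, encoding cIAP2, held 39.7 and 22.5 (0.70, FDR 0.0322). BIRC5, which encodes survivin and is expressed in mitosis, was not listed.

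Caspase genes were listed at 4 of 12 protein-coding members (33.3%, against 25.2% of all protein-coding genes). At the promoter it was 2 of them (16.7% of the 12), near the 17.5% of all protein-coding genes. CASP2 had the largest fold of all members, 1.74, in a region 1.32 kb downstream of a TSS (chromosome 7, 142998287 to 142998687) that went from 4.90 control reads to 24.8 knockdown reads (FDR 3.51e-05). That fold exceeds 99.2% of all increased regions. The TSS of the longer CASP2 transcript held 91.3 and 40.7 reads (1.03, FDR 0.000147). CASP9, the initiator caspase of the mitochondrial pathway, had a promoter region with 46.3 and 24.4 reads (0.80, FDR 0.0128). The region assigned to CASP8, initiator of the death receptor pathway, was 20.9 kb upstream within an intron annotated to CASP10 (16.9 and 6.63 reads, 0.96, FDR 0.0267).

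On chromosome 11, 6 increased regions within 444 kb were assigned to neighbouring inflammatory caspase genes, none of them at a promoter, and no other listed region lay between them. The pseudogene CASP12 was the nearest gene of 4, all of them outside the caspase genes and 192 to 341 kb downstream of its start, with log2 folds from 1.13 to 1.23. The nearest to CASP12 held 37.5 and 13.4 reads (FDR 0.000561). CASP5 had an intronic region with 14.8 and 4.93 reads (1.06, FDR 0.0159), and CASP4LP an intergenic one with 13.6 and 4.03 reads (1.09). At such distances the nearest gene is only a label.

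**Figure D3:**
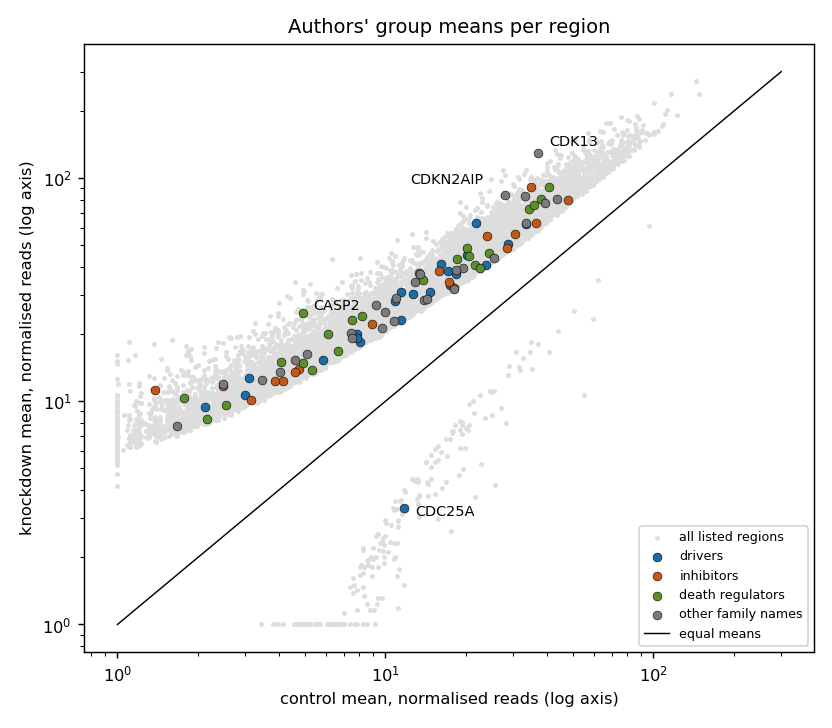
Authors' mean normalised reads in the control (x) and the knockdown (y) for every listed region (grey) and for member regions coloured by class, on log axes; the line marks equal means. Member regions lie within the cloud of listed regions, from 1.38 control reads upwards, and CDC25A is the member below the line.

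Some family names mark other roles, and these 19 genes held 27 increased regions. CDK13, a kinase that phosphorylates RNA polymerase II, had the highest knockdown mean of any member, 129 reads against 37.2 in the control, 0.465 kb upstream of its TSS (chromosome 7, 39989094 to 39989494, log2 fold 1.61, FDR 8.28e-09). By p-value this region ranked 9 among all 8815. CDK13 had 2 further promoter-annotated regions (1.19 and 1.03), the last with 7.75 and 1.66 reads. CDKN2AIP, whose product binds the ARF protein, had 4 increased regions, led by its promoter with 84.0 and 27.9 reads (1.41, FDR 1.08e-06). Its other regions had folds of 1.01 to 1.05.

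CDK14 (1.28 and 1.13) and CDK17 (1.21 and 1.11) had 2 increased regions each. Single regions were assigned to CDK5, a kinase known from neurons (0.85), its activator CDK5R1 (0.80), the centrosome protein gene CDK5RAP2 (0.67), CDK9, the elongation kinase of P-TEFb (0.83), CDK15 (0.83), CDK16 (0.77), CDC73, a subunit of the PAF1 complex (0.79), and CDKN2AIPNL (0.89). CDK11B (0.83) has a near-identical copy, CDK11A, so its reads are of uncertain origin, and CDC14C (1.16) is a retrocopy. The regions of the noncoding genes CCNT2-AS1 (1.19, FDR 1.96e-05) and MCM3AP-AS1 (0.79) lie at starts shared with CCNT2 and LSS, described next.

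Shared promoters limit which gene a region belongs to. Of 45 genes with a promoter region, 40 were in the RefSeq promoter table, and 11 of these (27.5%) had a start on the opposite strand within 1 kb upstream. Over the protein-coding members it was 8 of 37 (21.6%), against 24.9% of all protein-coding promoters with an increased region and 18.3% of all protein-coding promoters. Protein-coding partners were AP4M1 beside MCM7, FAF1 beside CDKN2C, SLC4A2 beside CDK5, CCNT2 beside CCNT2-AS1 and LSS beside MCM3AP-AS1. MCM4, MCL1, E2F8, CCNE2 and CDC73 were not in the RefSeq promoter table, so whether their starts are shared is unknown here.

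In 8 genes 3 or more regions were listed, and their patterns around the TSS differed. The promoter held the largest fold at E2F7 and CDKN2AIP, whereas a region outside it did at CDK6, CCNG1, BCL2 and PMAIP1. CDK13 had only promoter-annotated regions and CASP12 had none, so neither allows this comparison. Over all members, 53 increased promoter regions had a median log2 fold of 0.93 and 40.8 knockdown reads, and 35 increased regions elsewhere had 1.05 and 16.3 reads. All listed regions showed the same contrast, 0.89 with 47.9 reads at promoters and 1.02 with 16.7 reads elsewhere. Inhibitor promoters had the smallest median, 0.76 over 9 regions, against 0.91 over 13 driver and 0.96 over 12 death promoters.

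**Figure D4:**
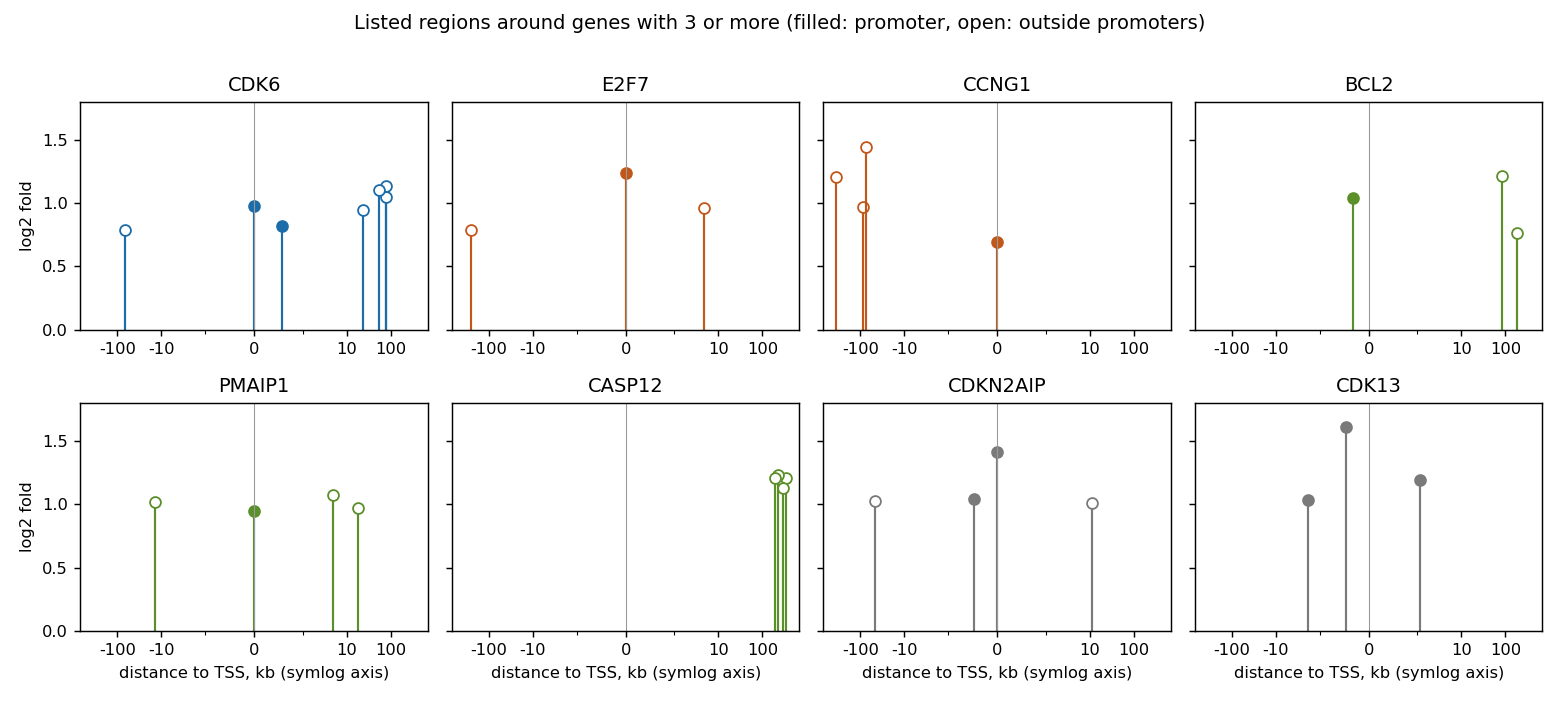
Deposited log2 fold against distance to the TSS in kb (negative is upstream; symmetric log axis, linear within 1 kb) for the 8 genes with 3 or more regions; filled points are promoter regions. CDK6 has regions from 67.7 kb upstream to 78.4 kb downstream, whereas the 4 CASP12 regions lie beyond 192 kb.

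Chromosome 7 contributed 17 of the 89 regions (19.1%), against 11.9% of all listed regions. All 7 family genes on it had an increased region (CASP2, CDC14C, CDK5, CDK6, CDK13, CDK14 and MCM7), where 51.5% of the 938 protein-coding genes of the chromosome did. The median log2 fold was 1.10 over these 17 regions and 0.97 over the 71 increased regions elsewhere. Without chromosome 7, increased regions were found at 24.4% of drivers, 52.6% of inhibitors and 39.3% of death regulators, against 24.0% of all genes. The part of chromosome 7 in the folds of its members was not tested.

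Letters of known cell-cycle motifs were unevenly spread over the promoters of the families, of which 105 of 125 were in the table. E2F matches stood in 9 of 37 driver promoters (24.3%), 0 of 16 inhibitor promoters and 1 of 21 death promoters, against 2.59% of 15843 promoters. Driver promoters with an E2F match and an increased region were E2F3, MCM6 and MCM7. Those of CDC16, CDC23, CDC25A, E2F1, E2F2 and MCM3 had the match and no listed promoter region. Among all family promoters an E2F match was present in 3 of the 37 with an increased region (8.11%) and in 9 of the 68 without (13.2%). Within the drivers, which hold most of these matches, the order was the other way, with 3 of 10 (30.0%) and 6 of 27 (22.2%).

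The CHR element, found in genes of mitosis, was present in 2 of 37 promoters with an increased region (5.41%) and 7 of 68 without (10.3%), against 11.9% of all promoters. Within the drivers this order turned too, with 2 of 10 (20.0%) and 3 of 27 (11.1%). CCAAT boxes were present in 32.4% and 51.5%, against 34.5%. GC boxes went the other way, with 70.3% and 61.8%, against 56.0% of all promoters and 68.5% of all promoters with an increased region. Among inhibitors alone, GC boxes stood in 5 of 7 (71.4%) and 8 of 9 (88.9%). ETS matches stood in 13.5% and 14.7% (11.8% of all promoters). CRE, AP-1 and NRF1 matches stood in 0 of the 37, and in 2.32%, 5.04% and 1.48% of all promoters. Median GC content was 67.6% in the 37 and 60.0% in the 68, and the median number of CpG dinucleotides was 24 and 18. The GC difference was widest in the death class (71.2% and 51.2%) and had the opposite sign in inhibitors (61.6% and 66.4%). Over all genes these values were 65.6% and 23 for increased promoters and 62.4% and 17 for all promoters.

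Other genes of these pathways were taken from textbook lists of names outside the rule. Arrest and checkpoint genes had an increased region at 12 of 20 (60.0%), against 25.2% of all protein-coding genes, and 11 of them (55.0%) had it at the promoter, against 17.5%. BTG1, an antiproliferative gene, held 120 and 51.7 reads at its promoter (1.10, FDR 1.09e-05). The stress genes GADD45A (0.98, FDR 9.57e-05) and GADD45B (1.09, FDR 0.000169) and the checkpoint kinase genes ATR (0.96) and ATM (0.81) were also increased. MDM4 was increased (0.76), while MDM2 and WEE1 were not listed.

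The cell cycle engine outside the name rule had increased regions at 21 of 50 genes (42.0%), against 25.2% of all protein-coding genes. DBF4, the regulatory subunit of CDC7 and a gene of chromosome 7, had the smallest p-value of all 8815 regions, with 108 and 27.4 reads at its promoter (log2 fold 1.79, FDR 2.4e-10). Partners of other CDKs were listed as well: CCNK, the cyclin of CDK13 (1.09, FDR 7.05e-06), and CCNC, the cyclin of CDK8 (0.93). CCNH and MNAT1, which form the CDK-activating kinase with CDK7, were listed too. The CCNH promoter had a log2 fold of 0.83. A region 368 kb from the CCNH TSS (1.07, FDR 0.0120) has CCNH only as its nearest gene. The MNAT1 region (1.01) lay 18.7 kb from its TSS. CCNL1, a cyclin linked to splicing, had 4 regions, the largest 14.2 kb from its TSS with 85.3 and 22.4 reads (1.69, FDR 9.91e-09). Origin recognition genes ORC5 (1.16), ORC4 (1.03), ORC1 (0.70) and ORC3 (0.61) had increased promoter regions, and ORC3 had a further region 8.52 kb from a TSS (1.03). RB1, PLK1, AURKA, AURKB and FOXM1 were not listed.

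Apoptosis genes outside the name rule had an increased region at 6 of 36 (16.7%), below the 25.2% of all genes. All 6 had it at the promoter, a share near the 17.5% of all protein-coding genes. They were CYCS, encoding cytochrome c, with 122 and 52.5 reads (1.12, FDR 2.63e-06, chromosome 7), the caspase inhibitor gene XIAP (0.98), the adaptor gene FADD (0.96), BAG3 (0.86), PDCD6 (0.75) and DIABLO (0.67). The pore-forming BAX and BAK1, the BH3-only genes BID, BAD, BIK, BMF, HRK and BBC3, the receptors FAS and TNFRSF10B, and APAF1 were not listed. None of the 106 genes on these outside lists had a decreased region, where 0.818% of all protein-coding genes did, so the absence sets them little apart.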

How the data were processed

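ATAC-seq libraries (4 control, 3 knockdown) were grouped by their titles. MACS2 2.2.6, deepTools 1.5.12, Bowtie2 2.4.1 and Picard 2.2.4 are listed, without roles, per the submitters' processing notes. The files hold the authors' log2 mean normalised read counts and log2 fold, and the authors' p-value and FDR (a false discovery rate, given as a q-value), per the file headers. Distances to a TSS and region widths are deposited by the authors too. The tool behind the normalisation and folds is not given in the sources used here.

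Although the notes name hg38, gene starts or ends equalled GRCh38.p14 in only 0.228% of matched regions, so coordinates are read as hg19. The column suffixes KP and KC were read as PHF19 knockdown and control, and the KP column carried a weight of 0.429 in the overall mean, as 3 of 7 libraries would. The number of tested regions is FDR times rank divided by p.

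Members, roles and lists were chosen with earlier results of these data known. Values were summarised as counts and medians with Python 3.11.15, pandas 2.3.3 and numpy 2.4.6, with no test of the lists, and the counting was tested on simulated data. Each role's 3 genes with the largest folds, each gene with 3 or more regions and each decreased gene were given full values, and every member is named. Printed promoters were limited, after seeing the data, to genes whose start-to-end length differed by at most 200 bp between annotations. BIRC8 and CASP12 had no protein-coding match. Alternatives were an FDR of at most 0.01, an absolute log2 fold of at least 1, promoters only, 10 kb, no chromosome 7, at least 10 reads, genes with a role only, and unshrunken differences. Single libraries could not be left out.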

Additional observations from a re-analysis of the deposited data

How the results depend on the processing

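No paired analysis was possible because the tables hold group means and no value per library, and for the same reason no library could be left out. The count of member genes with an increased region was 54. It fell to 31 with an FDR of at most 0.01, to 25 with log2 folds of 1 or more in size and to 35 with genes of a stated role only, which by construction keep fewer regions or genes. The 1 gene with a decreased region, CDC25A, was not counted (0 genes) with an FDR of at most 0.01, promoters only, regions within 10 kb of a TSS or at least 10 reads. The inhibitors' share fell from 52.6% to 21.1% with an FDR of at most 0.01. With log2 folds of 1 or more in size the shares were 11.6% of drivers, 26.3% of inhibitors and 17.2% of death regulators, against 11.3% of all protein-coding genes. Medians of the unshrunken difference of group means were 1.25, 1.31 and 1.35 in that order, larger by construction than the deposited folds. The other shares and medians stayed within the 95% Clopper-Pearson interval of the share, or 1 SD of the folds, under the alternatives run. Of the 89 regions, 13 had a control mean under 4 reads and 9 an FDR above 0.04.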

Other observations

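The CDC42 effector genes left out by the name rule also had increased regions in the authors' deposited table: CDC42SE2 at its promoter (log2 fold 0.77, FDR 0.0164) and 10.8 kb upstream (0.74), and CDC42EP3 at an intergenic region (0.69, FDR 0.0407).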
